A study of Mus musculus with 60 samples.

Results

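The mouse cell lines D7E and WTD were compared on 2-colour arrays. D7E carried a mutant Pabpn1, labelled high in level, and WTD the wild-type gene, labelled low. The pair was selected on measured values, the Pabpn1 ratios, which were closer in these lines than in any other of the 4 pairs of a mutant and a wild-type line. It comprised 24 of the 60 arrays in the series and 6 of the 15 cultures, with 3 cultures of each line. Every culture was hybridised against a common reference RNA of the untransfected line IM2, with both dye orientations on each of 2 array parts that carry different probes. The other transfected lines were WTA (wild-type, labelled high) and D7F (mutant, labelled low), and they formed a second pair with no culture in common with D7E and WTD. The labels name oculopharyngeal muscular dystrophy but do not state the mutation, the promoter of the construct, the tissue of origin or whether a line is 1 clone. Each combination of genotype and level is 1 line, so that genotype, line and construct level cannot be told apart. The labels do not say how independently the 3 cultures were grown, and the p-values measure the spread between these cultures, which may be technical.

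The protein of Pabpn1 binds poly(A) in the nucleus. It coats the growing poly(A) tail in the nucleus, stimulates poly(A) polymerase and limits the length of the tail, and it takes part in the choice of polyadenylation sites and in nuclear RNA turnover. In people, an expanded stretch of alanines near its start causes oculopharyngeal muscular dystrophy, a late-onset disease of eyelid, pharyngeal and proximal limb muscles in which the protein collects in nuclear inclusions.

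All values below are log2 ratios to the IM2 reference, taking the base of the deposited logarithms to be 10. The 2 dye orientations of a culture were averaged, and values at the ends of the deposited scale were dropped. On the arrays of D7E and WTD, part I had 82.9% to 99.7% of its rows filled and part II 66.5% to 99.0%, and the shares of filled values at a limit were 0.721% to 16.0% and 2.76% to 16.8%. Across all probes but controls, the 2 orientations of a culture, as single arrays, correlated with r = 0.123 to 0.255 (part I) and 0.0406 to 0.185 (part II). The cultures of a line, averaged over orientations and across tested probes alone, correlated with r = 0.453 to 0.804 and 0.550 to 0.726. The probe sets and the averaging differ, so these ranges are not directly comparable. Probes are not independent replicates, and cultures of a line also share dye and probe effects. The median standard error of a difference between D7E and WTD was 0.21, and the median 95% interval reached 0.46 to each side. The number of arrays limits the precision. Muscle was checked with 14 tested markers, of which none differed between the lines at an adjusted p under 0.05 (limma with Benjamini-Hochberg correction). At an unadjusted p under 0.05, 1 marker was higher and 0 lower (2.54% and 3.19% of all genes). Ratios to an IM2 reference do not show how strongly a marker was expressed.

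Pabpn1 itself is described without a test, since its ratios chose the pair. Its log2 ratio was 1.71, 1.45 and 1.67 in the 3 cultures of D7E and 1.47, 1.47 and 1.35 in those of WTD. The lowest D7E culture lay below both higher WTD cultures, so the lines overlapped. The means were 1.61 ± 0.14 (SD, n = 3) in D7E and 1.43 ± 0.07 (SD, n = 3) in WTD, a difference of 0.18 or 1.13-fold. The other pairs were farther apart: D7E less WTA gave -0.58, D7F less WTD -0.52 and D7F less WTA -1.28. With the arrays centred and scaled to a common spread, the difference between D7E and WTD was -0.45, so the similarity of the lines depends on the scaling. It is not stated whether this probe reads the endogenous transcript, the introduced one or both, and an mRNA ratio gives no level of protein.

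**Figure D1:**
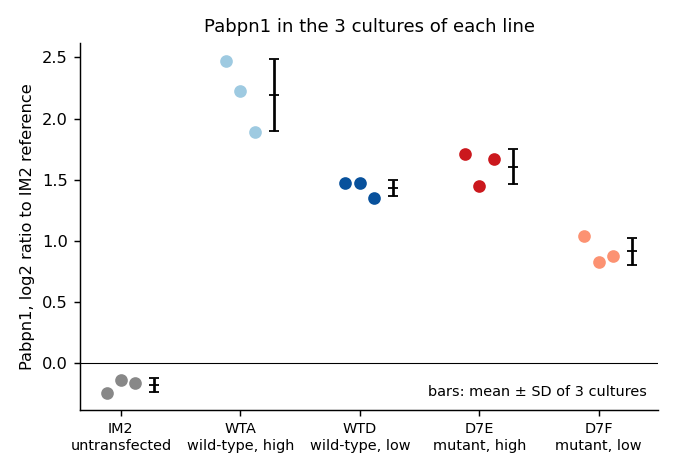
Log2 ratio of Pabpn1 to the IM2 reference (vertical axis) in the 3 cultures of each of the 5 lines, with bars for the mean ± SD. The cultures of D7E (1.45 to 1.71) and WTD (1.35 to 1.47) overlap, and lie between those of WTA and D7F.

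To ask which transcripts differed between a mutant and a wild-type line at similar Pabpn1 mRNA, D7E was compared with WTD over 9706 probes for 8107 genes. In D7E, 13 probes were higher and 9 were lower, 22 in all or 0.227% of those tested (adjusted p under 0.05 by limma after Benjamini-Hochberg correction; 0.134% higher and 0.0927% lower), and each of the 22 belonged to a different gene. At an unadjusted p under 0.05 there were 527 probes (5.43%). The differences called were 0.73 to 3.76 in size on the log2 scale. Of the 22 genes, 21 were measured in all 6 cultures and did not overlap between the lines, against 1129 (14.2%) of the 7969 probes with 6 values. The calls were made on these same cultures, so this separation is no further evidence. The largest rises in D7E were those of Gpx7 and Loxl2, and the largest falls those of 3830403N18Rik, Xlr and Myl2. All 22 kept their direction with every alternative setting in which they could be fitted. These settings reuse the cultures on which the calls were made, so the kept direction is no further evidence either. Of the 22 genes, 8 kept the call without each culture in turn: Gpx7, Loxl2, Xrcc5, Fbxo5, Limd1, Abhd5, 3830403N18Rik and Xlr. None of these 8 passed in all 18 alternative settings, and Fbxo5 and Abhd5 passed in 13 each. The count itself fell to 10 without culture 1 of WTD and to 10 without culture 3 of WTD, and 3 probes were called when D7E and WTD were fitted without the other lines.

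**Figure D2:**
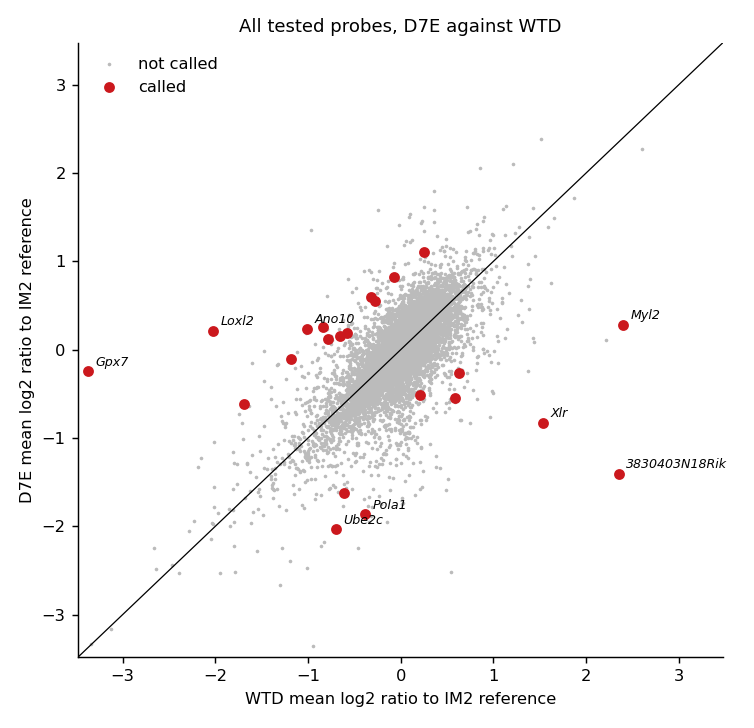
Mean log2 ratio of every tested probe in WTD (horizontal axis) and D7E (vertical axis), with the 22 called genes in red and the line of equality in black. Gpx7 and Loxl2 lie far to the left, at low WTD values, and Myl2, Xlr and 3830403N18Rik far to the right.

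Most of the rises were genes that stood low in WTD and near the reference in D7E. In 9 of the 13 genes higher in D7E, the WTD mean lay farther from the IM2 reference than the D7E mean. Gpx7 encodes a peroxidase of the endoplasmic reticulum that passes oxidising equivalents to protein disulphide isomerases. Its log2 ratio was -0.17, -0.24 and -0.33 in the D7E cultures and -2.74, -3.92 and -3.47 in the WTD cultures. All 3 WTD cultures were thus far below the reference, while D7E stayed close to it. The difference was 3.13 (SE 0.23), or 8.77-fold, with an adjusted p of 2.18e-05 (Benjamini-Hochberg adjusted limma test). WTD also stood apart from the remaining lines, whose Gpx7 means were -0.72 in WTA and -0.35 in D7F.

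Loxl2, a lysyl oxidase that cross-links collagen and elastin, gave 0.30, 0.12 and 0.22 in D7E and -1.97, -2.07 and -2.03 in WTD. The difference was 2.24 (SE 0.29, adjusted p = 0.00437; limma, Benjamini-Hochberg adjusted). Here D7F was low as well, at a mean of -1.71, whereas WTA stood at -0.42. A second Loxl2 probe, on the other array part, had only 1 D7E culture and was not tested. It read 0.11 in that culture and -0.09 to -0.87 in WTD, the same direction by a smaller amount.

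Xrcc5 encodes Ku80, which binds broken DNA ends in non-homologous end joining. Its cultures were at 0.26, 0.37 and 0.15 in D7E and at -0.82, -0.93 and -0.76 in WTD. The lines were separate by a wide margin, with a difference of 1.10 (SE 0.10, adjusted p = 0.000608; limma with Benjamini-Hochberg correction). Fbxo5, the inhibitor of the anaphase-promoting complex also known as Emi1, was at -0.20, -0.13 and 0.0056 in D7E against -0.94, -1.39 and -1.20 in WTD. Its difference was 1.07 (SE 0.15, adjusted p = 0.00800; Benjamini-Hochberg adjusted limma test). Mmp23, a membrane-anchored metalloproteinase, rose by 0.80 (adjusted p = 0.0106), from WTD cultures between -0.68 and -0.60 to D7E cultures between 0.09 and 0.26. WTA shared the low Mmp23 value of WTD, with a mean of -0.63. The Mmp23 call was lost without culture 2 of D7E or culture 1 or 3 of WTD (adjusted p up to 0.0651).

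The genes of contractile and calcium-handling muscle proteins went in both directions. Pvalb, the calcium buffer of fast muscle fibres, was below the reference in both lines, at -0.45, -0.52 and -0.88 in D7E and -1.55, -1.60 and -1.92 in WTD. Its difference was 1.07 (SE 0.17, adjusted p = 0.0216; limma, Benjamini-Hochberg adjusted). The other transfected lines were above the reference for Pvalb, at 0.54 in WTA and 0.58 in D7F. Tmod4, a tropomodulin that caps the pointed ends of thin filaments, was at 1.04, 0.73 and 0.70 in D7E and at -0.03, -0.12 and -0.08 in WTD, a difference of 0.90 (SE 0.15, adjusted p = 0.0313). WTD was alone among the transfected lines in staying near the reference, since WTA had a mean of 1.45 and D7F of 1.40. Cmya5, or myospryn, a costamere protein, was at 0.73, 0.36 and 0.56 in D7E against -0.40, -0.34 and -0.08 in WTD, a difference of 0.83 (SE 0.14, adjusted p = 0.0372). A second Cmya5 probe, with too few cultures to be tested, had the opposite sign (-0.30). The Pvalb difference was 1.68 with the arrays centred and scaled. The calls of Pvalb and Cmya5 held without culture 3 and culture 2 of D7E, respectively, and were lost without any other culture, and that of Tmod4 was lost without any 1 of the 6.

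Myl2 encodes the regulatory myosin light chain of slow skeletal and ventricular muscle. It was at 0.37, 0.13 and 0.34 in D7E and at 2.22, 2.53 and 2.46 in WTD. D7E thus lay close to the reference and all WTD cultures far above it, with a difference of -2.12 (SE 0.30, adjusted p = 0.00948; limma with Benjamini-Hochberg correction). WTA resembled WTD, at a mean of 2.20, and D7F lay between these lines and D7E at 0.91. Without culture 3 of WTD the Myl2 call was lost (adjusted p = 0.0572). Chrne, the epsilon subunit that replaces gamma in the adult acetylcholine receptor, was at -0.53, -0.07 and -0.19 in D7E and at 0.42, 0.62 and 0.84 in WTD. The difference of -0.89 (SE 0.16, adjusted p = 0.0442) was lost without any 1 of the 6 cultures. Fxyd1, or phospholemman, a regulator of the sodium pump in muscle, was below the reference in all D7E cultures (-0.30 to -0.71) and above it in all WTD cultures (0.44 to 0.79), a difference of -1.13 (SE 0.16, adjusted p = 0.0107). WTA was close to WTD for this gene as well, at 0.63. The Fxyd1 call was lost without culture 2 of D7E or culture 1 or 2 of WTD (adjusted p up to 0.0658).

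**Figure D3:**
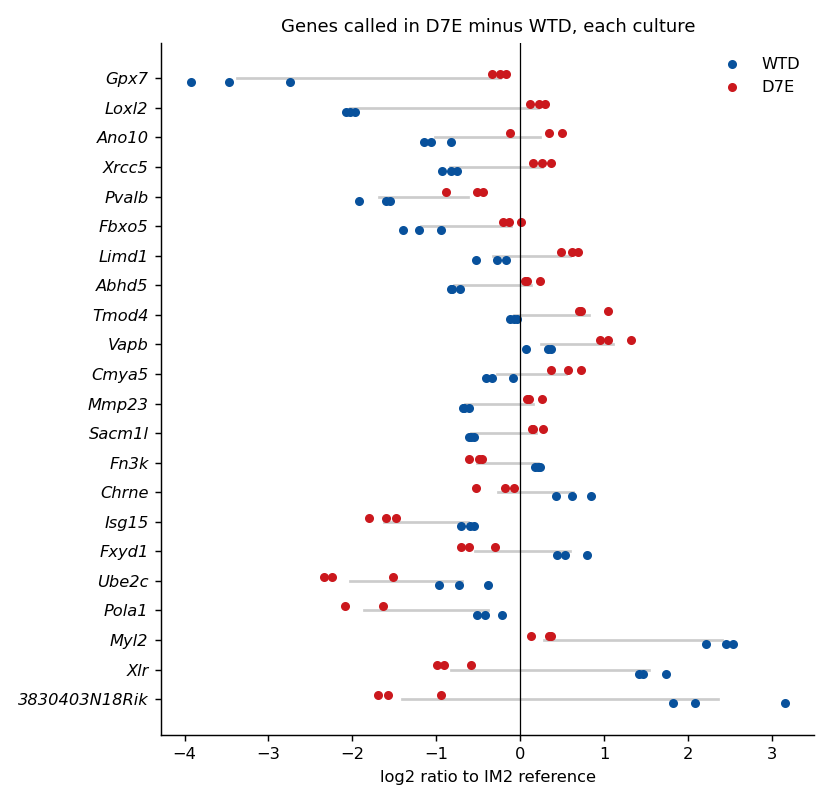
Log2 ratio to the IM2 reference (horizontal axis) of the 22 called genes in each culture of WTD (blue) and D7E (red), with a grey line between the means. The points of both colours do not overlap for any gene, and Pola1 has only 2 D7E points.

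The strongest falls in D7E were of X-linked genes of the Xlr family, which code for proteins related to a component of the synaptonemal complex. 3830403N18Rik was at -1.58, -1.69 and -0.95 in D7E and at 2.08, 1.83 and 3.15 in WTD. WTD lay far above the reference and D7E below it, and the difference of -3.76 (SE 0.38, adjusted p = 0.000587; Benjamini-Hochberg adjusted limma test) corresponds to a 13.5-fold higher ratio in WTD. Xlr was at -0.59, -0.90 and -0.99 in D7E against 1.74, 1.46 and 1.42 in WTD, a difference of -2.37 (SE 0.27, adjusted p = 0.00312). For both genes WTD was the only line with a mean clearly above the reference, since WTA had -0.92 and -0.19 and D7F -2.37 and -1.07. A second Xlr probe did not follow, with a difference of -0.16 (adjusted p = 0.999). The related genes Xlr3a and Xlr4c had differences of -0.11 and 0.48 (adjusted p = 0.999 for both). Family members are similar in sequence, so a probe can read more than 1 of them. The 250 bases before the start sites of both genes, taken from RefSeq (GRCm38.p6), are also alike and are shown as a description. They lie before the transcripts and so do not show what a probe reads. A link between these bases and the differences was not tested. Capitals mark the longest stretch that the sequences share, of 102 bases. The 3830403N18Rik sequence is from chrX:56136322-56136571 (plus strand) and the Xlr sequence from chrX:53797707-53797956 (minus strand).
3830403N18Rik: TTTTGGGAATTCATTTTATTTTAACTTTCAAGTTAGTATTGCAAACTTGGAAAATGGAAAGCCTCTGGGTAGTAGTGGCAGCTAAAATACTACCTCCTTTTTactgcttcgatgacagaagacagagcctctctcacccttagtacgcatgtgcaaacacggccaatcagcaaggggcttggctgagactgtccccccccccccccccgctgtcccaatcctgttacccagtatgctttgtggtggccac
Xlr: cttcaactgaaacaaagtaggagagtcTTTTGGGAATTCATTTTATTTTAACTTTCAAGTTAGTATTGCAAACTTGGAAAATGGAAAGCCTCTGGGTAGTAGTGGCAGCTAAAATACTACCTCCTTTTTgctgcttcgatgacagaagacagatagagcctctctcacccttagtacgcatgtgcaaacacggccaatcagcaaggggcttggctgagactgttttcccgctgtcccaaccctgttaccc

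A probe next but 1 to that of Xlr in identifier order, for Gmfb, also had a difference of -1.01 (adjusted p = 0.0831), with a WTD mean of 0.95. Likewise the probe next but 1 to that of Vapb, for Ywhab, had 0.49 (adjusted p = 0.0967). Both were picked after their values were seen. Of 53 tested probes within 2 identifiers of a called one, 4 had an unadjusted p under 0.05, against 5.43% of all tested probes. Of these 4, 2 (Gmfb and Ywhab) had the sign of the called gene and 2 the opposite sign. After adjustment 0 of the 53 passed (limma, Benjamini-Hochberg). Across all probes, the differences of probes 1, 2 or 5 identifiers apart correlated with r = 0.0400 to 0.118, and probes are not independent replicates.

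Isg15, a ubiquitin-like protein induced by interferon, was lower than the reference in both lines and lower still in D7E. Its values were -1.47, -1.60 and -1.80 in D7E and -0.59, -0.55 and -0.70 in WTD. The difference was -1.01 (SE 0.14, adjusted p = 0.0107; limma, Benjamini-Hochberg adjusted), and WTA (-1.80) and D7F (-1.31) were closer to D7E than to WTD. The call was lost without culture 1 or 2 of WTD (adjusted p up to 0.0651), and the difference was -0.61 with the arrays centred and scaled. In the interferon and antigen presentation list, Isg15 was the only 1 of 53 tested genes called, against 0.111% of all genes called lower. The median difference of the list was -0.10, beside -0.01 for all genes, and 40 of the 53 were below 0, against 52.2% of all genes. By culture the list medians were -0.32, -0.37 and -0.21 in D7E and -0.24, -0.27 and -0.21 in WTD, so the lines overlapped. In D7F less WTA the median difference was 0.06. At an unadjusted p under 0.05, 5 genes of the list were lower and 0 higher in D7E less WTD (3.19% and 2.54% of all genes). Among them were Trim25, a ubiquitin ligase of RNA sensing, at -0.50 (adjusted p = 0.221), and Psmb8, an immunoproteasome subunit, with 2 probes at -0.72 (adjusted p = 0.318) and -0.39 (adjusted p = 0.774).

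The 250 bases before the start of Isg15 are shown because they hold matches to the element through which interferon-activated factors act. They come from RefSeq (GRCm38.p6), chr4:156200819-156201068 (minus strand). Capitals mark 3 overlapping matches to GAAANNGAAA, searched on both strands, all on the gene's strand and within 78 to 57 bases before the start. Of 27025 promoters of the same length, 3.04% held a match. A match is a description of the sequence and not a measured site.
Isg15: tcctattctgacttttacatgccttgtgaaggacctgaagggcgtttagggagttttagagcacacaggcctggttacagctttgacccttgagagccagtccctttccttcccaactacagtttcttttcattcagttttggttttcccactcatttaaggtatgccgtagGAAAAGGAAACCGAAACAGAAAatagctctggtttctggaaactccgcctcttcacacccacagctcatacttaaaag

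Genes of DNA replication and mitosis had differences mostly below 0, with 2 calls. Of 63 tested, 2 fell and 0 rose at an adjusted p under 0.05 (0.111% and 0.160% of all genes), and 14 were lower and 1 higher at an unadjusted p under 0.05 (3.19% and 2.54% of all genes). Differences were below 0 for 48 of the 63, and their median was -0.24, beside -0.01 for all genes. Over 18 alternative settings the median of the list ranged from -0.28 to -0.15. Both lines were below the reference, with list medians of -0.57 in D7E and -0.35 in WTD. By culture these medians were -0.56, -0.29 and -0.68 in D7E and -0.27, -0.28 and -0.47 in WTD, so that the highest D7E culture overlapped WTD.

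Pola1, the catalytic subunit of the DNA polymerase that starts new strands, was at -2.08 and -1.64 in 2 D7E cultures and was not measured in culture 2. WTD was at -0.51, -0.42 and -0.21, which gave a difference of -1.48 (SE 0.20, adjusted p = 0.0107; limma with Benjamini-Hochberg correction). Ube2c, the ubiquitin-conjugating enzyme of the anaphase-promoting complex, was at -2.25, -2.34 and -1.52 in D7E and at -0.39, -0.73 and -0.96 in WTD, a difference of -1.34 (SE 0.25, adjusted p = 0.0442). D7F was as low as D7E, with a Ube2c mean of -1.90, and WTA was at -0.84. The Pola1 difference was -0.72 with Cy5 arrays alone. The call of Pola1 was lost without culture 1 of D7E or culture 3 of WTD, and that of Ube2c without any culture but culture 3 of D7E. Below the threshold, Ccna2, the cyclin of S phase and early mitosis, had -1.81 (adjusted p = 0.0938), with 2 of the 3 D7E cultures measured, at -2.04 and -1.85. Mcm3, a subunit of the replicative helicase, had -1.35 (adjusted p = 0.461), and Ncapg, a condensin subunit, -1.01 (adjusted p = 0.458). Fbxo5, whose protein restrains the complex that Ube2c serves, rose.

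In the cholesterol and lipid list 0 of 30 genes were called, and the count at an unadjusted p under 0.05 was 7 higher and 1 lower (2.54% and 3.19% of all genes). The median difference was 0.13, beside -0.01 for all genes, and stayed between 0.11 and 0.19 over the alternative settings, which reuse the same cultures. Differences were below 0 for 9 of the 30. By culture the list medians were 0.22, 0.06 and 0.16 in D7E and 0.07, -0.10 and -0.0036 in WTD, so the lines overlapped. In D7F less WTA the median difference was -0.18. The lipid droplet and fatty acid genes Cd36 (0.52, adjusted p = 0.417), Plin2 (0.63, adjusted p = 0.901) and Acsl4 (0.44, adjusted p = 0.704) were among the 7, beside Mvd (0.37, adjusted p = 0.688) and Msmo1 (0.73, adjusted p = 0.774) of sterol synthesis. Fabp5, a fatty acid carrier, had -0.73 (adjusted p = 0.901). Abhd5, which activates the main triglyceride lipase of lipid droplets, was called higher but was not in the list and adds no call to it. It is among the neighbouring genes on chromosome 9 described below.

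The polyadenylation and poly(A) tail list had 0 of 26 members called and 0 in either direction at an unadjusted p under 0.05. The median difference of the list was 0.07. Pabpn1 itself is 1 of the 26, and since its ratios chose the pair, its value is no test. Nab2 (0.17) and Ski (-0.06) are also counted, although in mouse they encode transcriptional co-repressors and not poly(A) factors. Fip1l1, a subunit of the cleavage and polyadenylation factor, had -0.56 (95% interval 0.86 to each side), and Rbbp6, another, had 0.38 (95% interval 1.11 to each side). These intervals leave room for differences in either direction. Splicing factors (82 tested, median 0.0011), proteasome subunits (39 tested, median -0.05), chaperones (47 tested, median 0.04), oxidative phosphorylation (63 tested, median -0.0058) and cytoplasmic ribosomal proteins (63 tested, median 0.06) likewise had 0 members called. At an unadjusted p under 0.05 they had 1, 0, 1, 0 and 3 higher and 2, 1, 0, 0 and 1 lower members (2.54% and 3.19% of all genes).

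Among muscle genes, 1 of 40 thin filament, Z-disc and M-band genes (Tmod4) was called higher and 0 lower, with a median of 0.08 and 7 higher and 2 lower at an unadjusted p under 0.05. Of all genes, 0.160% were called higher and 0.111% lower, 2.54% were higher and 3.19% lower at an unadjusted p under 0.05, and the median was -0.01. Of 8 myosin chains, Myl2 was called lower, 7 of 8 were below 0 and the median was -0.22. Calcium handling and energy metabolism had 1 of 40 called higher (Pvalb) with a median of -0.02, and the acetylcholine receptor and dystrophin complex 1 of 21 called lower (Chrne) with a median of -0.04. At an unadjusted p under 0.05 the myosin chains had 0 higher and 1 lower, calcium handling and energy metabolism 1 higher and 4 lower, and the receptor and dystrophin complex 0 higher and 2 lower. Among those 4 were Cox8b, a subunit of cytochrome c oxidase in muscle, at -0.97 (adjusted p = 0.0938), and Ldhb, a lactate dehydrogenase subunit, at -0.99 (adjusted p = 0.176), both named after their values were seen. Of 34 myogenic factors and fusion genes none was called, with 0 higher and 1 lower at an unadjusted p under 0.05. That 1 was Heyl, a Notch target, at -0.90, and Myf5 had -0.51. The myogenic regulators Myod1 (-0.03), Myog (0.02) and Myf6 (0.07) and the structural markers Des (-0.12), Ckm (0.23), Tnnt3 (-0.11), Mylpf (-0.27) and Chrna1 (-0.04) had small differences that did not pass. Acta1, skeletal actin, had 0.44 with an unadjusted p of 0.00633.

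The collagen and matrix list had 1 of 70 genes called, Loxl2, and its median was -0.05, although both lines were below the reference (medians of -0.51 in D7E and -0.50 in WTD). The endoplasmic reticulum stress list had 1 of 46 called, Gpx7, with a median of -0.04. Ubiquitin enzymes had 1 of 67 called, Ube2c, with a median of 0.0054. At an unadjusted p under 0.05 these 3 lists had 1, 1 and 1 higher and 5, 3 and 4 lower members. Of all genes, 2.54% were higher and 3.19% lower at that threshold, and 0.160% were called higher and 0.111% lower. Markers of fibroblasts (10 tested, median difference -0.08), smooth muscle (7 tested, -0.12), fat cells (6 tested, -0.12), neural cells (6 tested, -0.01) and endothelium (4 tested, -0.03) had 0 calls, with 2, 0, 0, 1 and 0 lower and 0, 0, 1, 0 and 0 higher at an unadjusted p under 0.05. Of leukocyte and of bone and cartilage markers only 1 each could be tested, at 0.20 and -0.51.

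Of the 13 rises, 4 were neighbours on chromosome 9 in the RefSeq gene table (GRCm38.p6), which was used here for gene order alone. They were Ano10, an anoctamin membrane protein, Abhd5, Limd1, a LIM domain scaffold protein, and Sacm1l, a phosphoinositide phosphatase of the endoplasmic reticulum. This was noticed after the values were seen and is a description with no test. Ano10 was at -0.13, 0.34 and 0.50 in D7E and at -1.06, -1.15 and -0.83 in WTD, a difference of 1.25 (SE 0.21, adjusted p = 0.0235; Benjamini-Hochberg adjusted limma test). Abhd5 was at 0.08, 0.06 and 0.24 in D7E and at -0.81, -0.71 and -0.82 in WTD, a difference of 0.91 (SE 0.13, adjusted p = 0.00800). WTD was again the line far from the reference, and D7E the line near it. Limd1 was at 0.69, 0.61 and 0.49 in D7E and at -0.27, -0.17 and -0.52 in WTD, a difference of 0.92 (SE 0.12, adjusted p = 0.00800). Sacm1l was at 0.14, 0.27 and 0.15 against -0.54, -0.59 and -0.61, a difference of 0.77 (SE 0.11, adjusted p = 0.0147). It lay outside the rule for named genes and was chosen after its values were seen. The Ano10 call held only without culture 1 of D7E, and that of Sacm1l only without culture 1 or 3 of D7E, when single cultures were left out.

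Between and including these 4 genes, 9 neighbouring genes were tested, and D7E was higher for all 9. WTD was the lowest of the 4 transfected lines in 8 of them, a pattern that 23.8% of all genes had. The median of the 9 genes was -0.58 in WTD, 0.19 in D7E, 0.11 in WTA and -0.0039 in D7F. By culture it was -0.54, -0.55 and -0.82 in WTD and 0.08, 0.27 and 0.20 in D7E, so that the cultures of both lines did not overlap. The median difference, 0.77, was the highest among 7860 windows of 9 neighbouring tested genes, where the highest elsewhere was 0.34 and the lowest -0.42. The stretch was picked on these same differences, begins and ends at called genes, and has the length of the windows. Its high rank follows in part from that choice and is no test. Of the 5 genes before the stretch 0 were higher in D7E, and of the 5 after it 3 were, among them Fyco1 at 1.28 (adjusted p = 0.404). Probes of both array parts contributed, as Ano10 and Abhd5 were on part II and Limd1 and Sacm1l on part I.

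**Figure D4:**
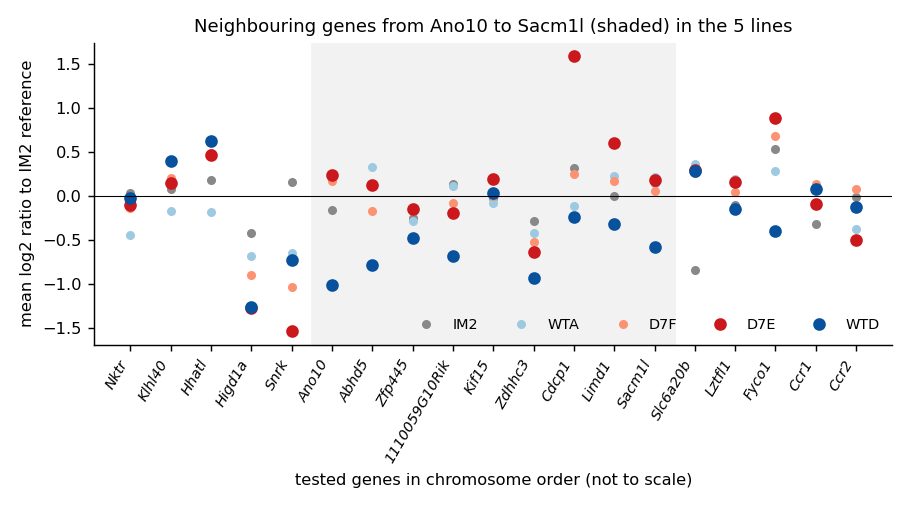
Mean log2 ratio to the IM2 reference (vertical axis) in the 5 lines for 9 neighbouring tested genes from Ano10 to Sacm1l (shaded) and 5 tested genes on each side, in chromosome order and not to scale. WTD (blue) is the lowest of the transfected lines for 8 of the 9 shaded genes.

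The remaining calls were Vapb and Fn3k. Vapb, a tether protein of the endoplasmic reticulum, was above the reference in both lines, at 1.32, 1.05 and 0.95 in D7E and 0.37, 0.07 and 0.33 in WTD, a difference of 0.85 (SE 0.14, adjusted p = 0.0313, and lost without any culture but culture 3 of D7E; limma, Benjamini-Hochberg adjusted). The Vapb means were 1.41 in WTA and 0.26 in D7F, beside 1.11 in D7E and 0.25 in WTD. Both lines labelled high thus lay above both lines labelled low. Fn3k, a kinase that removes sugar from glycated proteins, was at -0.45, -0.50 and -0.60 in D7E and at 0.17, 0.23 and 0.21 in WTD. D7E was the only transfected line with Fn3k below the reference, as WTA stood at 0.39 and D7F at 0.48. Its difference was the smallest of the calls, -0.73 (SE 0.12, adjusted p = 0.0313), and it was lost without any 1 of the 6 cultures.

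To ask whether these differences recurred in the other pair of a mutant and a wild-type line, the 22 genes were read in D7F less WTA, a pair that differs in Pabpn1 by -1.28. By the labels, the mutant line is the high one in D7E less WTD and the low one in D7F less WTA. The level thus runs in opposite directions in the pairs. That comparison had 28 called probes (0.288%), 16 higher and 12 lower in D7F, and 932 (9.6%) at an unadjusted p under 0.05. Of the 22 genes, 9 had the same sign in both pairs, against 48.2% of all probes, and this was so for 6 of the 9 falls and 3 of the 13 rises. Only Vapb was called in both pairs, in opposite directions, with -1.14 (adjusted p = 0.00346; limma with Benjamini-Hochberg correction) in D7F less WTA. The values of 3830403N18Rik, Xlr, Myl2, Ube2c and Fxyd1 were below 0 there as well, at -1.44, -0.88, -1.30, -1.05 and -0.69 but none of these 5 passed (adjusted p = 0.123 to 0.251). The difference between the pairs was itself called for 37 probes (0.381%; 768, or 7.91%, at an unadjusted p under 0.05), and for 10 of the 22 genes: Gpx7, Loxl2, Xrcc5, Fbxo5, Limd1, Abhd5, Vapb, Cmya5, Sacm1l and Isg15. For Loxl2 it was 3.53 (adjusted p = 0.00148), with -1.29 in D7F less WTA against 2.24 in D7E less WTD. The difference between the pairs is also the lines labelled high (D7E and WTA) less those labelled low (WTD and D7F). A mutant effect that differs between the pairs and an effect of level cannot be told apart in it. The 22 genes were selected on D7E less WTD, which enters this difference, so their share is no further evidence. Without culture 2 of WTA the count for D7F less WTA rose to 60, and it was 18 without culture 2 of D7F.

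**Figure D5:**
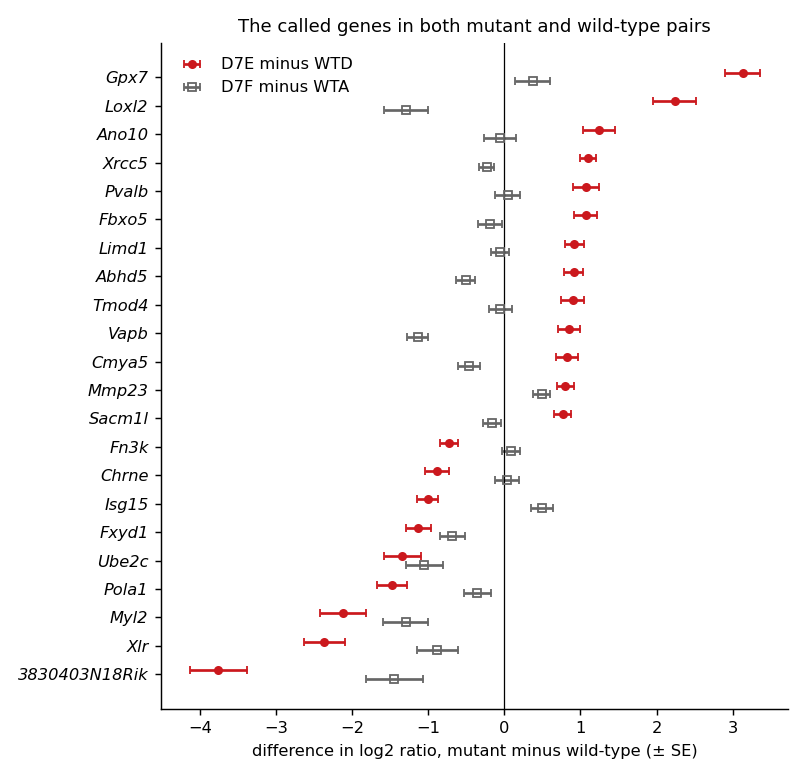
Difference in log2 ratio, mutant less wild-type, with its standard error (horizontal axis) for the 22 called genes in D7E less WTD (red circles) and D7F less WTA (grey squares). Vapb and Loxl2 lie on opposite sides of 0 in the pairs, and Ube2c and Myl2 on the same side.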

How the data were processed

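The deposited values were log ratios per probe, 1 column per array, with no unit stated. They were taken as log10 ratios as deposited by the authors, because they stop exactly at -2 and 2, and were multiplied by 3.32 to give log2 ratios. Sizes and folds therefore hold only if the base is 10, whereas signs and calls hold for any base. Nothing used here states how the arrays were scanned, background-corrected or normalised. Groups, culture numbers and dyes came from the labels. On part I, the dye of WTA culture 3 is opposite in the sample titles and in the channel labels, which were followed. For D7F culture 1, a single part I description gives a high level, and the low level of the line's remaining labels was kept. Ratios were read as culture over reference, as Pabpn1 was positive on 12 of 12 part I arrays of D7E and WTD in both orientations. Part II has no Pabpn1 probe and was read the same way. Over 156 genes on both parts, the mean of D7E and WTD less IM2 correlated with r = 0.409 between the parts (-0.409 with part II turned), Ndrg1 was at -3.16 in D7E and -3.12 in WTD on part I and at -2.25 and -2.66 on part II, and the D7E less WTD difference with r = 0.106.

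Rows with identical values were collapsed (16416 rows to 7600 probes on part I, 15552 to 14326 on part II), and control probes were left out. Values at a limit (7.71% and 10.5% of filled values) were dropped. A culture needed both orientations, and a probe needed 2 cultures in every line. The parts were fitted separately with limma 3.58.1 (lmFit, eBayes) in R 4.3.3, all 5 lines in 1 model with no covariate. P-values of both parts were pooled for Benjamini-Hochberg adjustment, and a call is an adjusted p under 0.05. The fit was tested on simulated data. Genes were named through Entrez identifiers and the RefSeq table. Of the 22 called genes, 19 had an entry in the promoter table.

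Named genes were Pabpn1, the 12 largest rises and 12 largest falls among calls with 6 values and no overlap (8 falls met this), up to 4 called members of each gene list or else the 2 largest differences, and the muscle markers. The members, lists and rules were chosen with earlier results of these data known.

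Cultures of both lines carry the same numbers. The deviations of same-numbered cultures from their line means correlated with r = 0.151, 0.0297 and 0.287 on part I and 0.167, -0.0839 and 0.209 on part II, and the labels state no pairing, so no block was used. The alternatives covered limit values, array scaling, lines in the fit, dye orientation, probe filter, replicate block, array quality, array weights and each culture left out.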

Additional observations from a re-analysis of the deposited data

Results flagged for a closer look

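The mutant less wild-type difference itself differed between the pairs D7E less WTD and D7F less WTA for 37 probes (limma with Benjamini-Hochberg adjustment). This count was 71 without culture 2 of WTA, and 18 to 24 without culture 2 of D7E, culture 1, 2 or 3 of WTD, culture 1 or 2 of D7F or culture 1 of WTA. The same contrast is that of the lines labelled high (D7E and WTA) less those labelled low (WTD and D7F). It cannot tell a mutant effect that differs between the pairs from an effect of level. Among the genes named above, the first pair less the second gave 2.76 for Gpx7 (adjusted p = 0.00148), 3.53 for Loxl2 (adjusted p = 0.00148), 1.33 for Xrcc5 (adjusted p = 0.00148) and 1.26 for Fbxo5 (adjusted p = 0.0208). It was 0.98 for Limd1 (adjusted p = 0.0310), 1.42 for Abhd5 (adjusted p = 0.00232), 0.93 for Sacm1l (adjusted p = 0.0308), 1.99 for Vapb (adjusted p = 0.00148) and 1.29 for Cmya5 (adjusted p = 0.0172). For Isg15 it was -1.50 (adjusted p = 0.00575), as D7E less WTD was -1.01 and D7F less WTA 0.49. These genes were called on D7E less WTD, which enters the difference between the pairs, so their calls here are no further evidence.

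The other 27 of the 37 probes were not called in D7E less WTD. Among genes named in the report they included that of Pabpn1, at 0.18 in D7E less WTD and -1.28 in D7F less WTA, which is a description since its ratios chose the pair. Trim25 had -0.50 and 0.39, a difference of -0.89 (adjusted p = 0.0438), and Ywhab 0.49 and -0.76, a difference of 1.25 (adjusted p = 0.00148). Pdcd4, an inhibitor of translation initiation in the list of apoptosis genes, had 0.80 in D7E less WTD and -0.90 in D7F less WTA, a difference of 1.70 (adjusted p = 0.0308). Sod3, the extracellular superoxide dismutase, had -0.79 and 2.08, a difference of -2.87 (adjusted p = 0.00575). The Sod3 value in D7E less WTD rests on 2 D7E cultures, since culture 2 was not measured, and ranged from -1.68 to -0.34 over the alternative settings.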

How the results depend on the processing

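The number of calls depended more on the settings than their direction did. The 22 probes called in D7E less WTD became 35 with the arrays centred and scaled, 48 with array weights, 3 with the lines of the contrast fitted alone, 5 with Cy3 arrays alone, 5 with Cy5 arrays alone and 6 with 1 orientation enough for a culture, and lay between 10 and 26 without 1 culture. Of the 22 genes, 17 stayed past the threshold when arrays with many limit or missing values were left out. The replicate block, with numbers that share no stated origin, gave 16 calls, and not every culture correlated best with its own number. The 28 calls in D7F less WTA became 17 with limit values kept, 5 with Cy5 arrays alone, 43 with values required in all cultures and 0 of 13929 with those lines alone (limma; 859 at an unadjusted p under 0.05), and 18 to 60 without 1 culture. The 37 calls for the difference between the pairs became 19 with limit values kept, 22 with those lines alone, 9 with Cy3 and 7 with Cy5 arrays alone, 16 with 1 orientation enough and 61 with values required in all cultures, and 18 to 71 without 1 culture. The difference of Pabpn1 between D7E and WTD was -0.45 with the arrays centred and scaled. Among named genes that were not called, the sign turned for Fip1l1 without culture 1 of WTD (-0.95 to 0.0018 over the cultures left out), Rbbp6 with limit values kept (-0.74) and Cy3 arrays alone (-0.12), Myf5 with Cy5 arrays alone (0.16), Dnajb12 with limit values kept (0.78) and without culture 3 of D7E (-1.08 to 0.0042 over the cultures left out), Prpf4b with Cy5 arrays alone (0.073) and Fabp5 with the arrays centred and scaled (0.11). The cause of these changes was not tested.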
